A study of Homo sapiens with 48 samples.

Results

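A set of 8 genes of cholesterol synthesis and its control was followed through an RNA sequencing experiment on uveal melanoma cells: the enzyme genes HMGCS1, IDI1, FDFT1, SQLE and DHCR7, the regulator gene INSIG1, and SREBF1 and SREBF2, which encode the SREBP transcription factors. They were chosen by name, with earlier results of these data known, and the 8 are all found among the 58870 genes counted. The 48 samples came from 3 established uveal melanoma cell lines, 92-1, MEL202 and MP41, each with the genotype label WT. All lines were given FHT-1015, described in the series as inhibiting both SMARCA4 and SMARCA2, the ATPases of BAF chromatin remodelling complexes, or DMSO, the solvent control, for 4 h or 24 h. Line 92-1 was also given IDE196, a protein kinase C inhibitor, for 4 h or 24 h beside a DMSO set of its own. Each of the 16 groups held 3 samples labelled as biological replicates in 4 experiments of 12 samples, an experiment being 1 drug in 1 line beside its own DMSO. No dose stands in the labels, and whether replicates were separate cultures is not stated, so p-values measure the spread between these samples, part of which may be technical.

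Animal cells make cholesterol from acetyl-CoA through mevalonate, isoprenoids, squalene and a series of sterols. SREBP proteins are made in the membrane of the endoplasmic reticulum, and when sterols are scarce SCAP escorts them to the Golgi, where proteases free the part that enters the nucleus and switches on genes of sterol synthesis and uptake. INSIG proteins hold SCAP and the precursor back when sterols are plentiful, and INSIG1 is itself a target of SREBP, so it belongs both to the output and to the brake. Messenger RNA of SREBF1 or SREBF2 therefore does not measure how much SREBP is processed, and no protein or sterol was measured here.

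The sequences just upstream of SREBF2, of the enzyme genes HMGCS1 and IDI1 and of INSIG1 are shown because SREBP target promoters are known to pair a sterol regulatory element with a CCAAT box, the site of NF-Y. They come from RefSeq (GRCh38.p14), run 5′ to 3′ on the gene's strand and stop where the annotated gene begins. Capitals mark matches to TCACNCCAC (sterol regulatory element), CACGTG (E-box) or CCAAT on either strand, so that CCAAT on the opposite strand reads ATTGG.
SREBF2, chr22:41832855-41833078: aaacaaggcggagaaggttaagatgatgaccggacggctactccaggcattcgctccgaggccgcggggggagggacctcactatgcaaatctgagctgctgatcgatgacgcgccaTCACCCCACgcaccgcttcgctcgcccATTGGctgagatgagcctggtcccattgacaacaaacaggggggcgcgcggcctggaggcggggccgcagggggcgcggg
HMGCS1, chr5:43313513-43313662: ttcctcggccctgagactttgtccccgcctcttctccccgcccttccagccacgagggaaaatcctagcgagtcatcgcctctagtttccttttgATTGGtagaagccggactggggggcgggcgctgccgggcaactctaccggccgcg
IDI1, chr10:1049171-1049369: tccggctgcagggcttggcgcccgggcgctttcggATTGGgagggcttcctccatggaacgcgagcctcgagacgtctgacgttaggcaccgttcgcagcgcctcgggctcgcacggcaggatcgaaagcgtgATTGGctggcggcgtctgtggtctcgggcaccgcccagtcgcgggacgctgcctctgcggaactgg
INSIG1, chr7:155297628-155297775: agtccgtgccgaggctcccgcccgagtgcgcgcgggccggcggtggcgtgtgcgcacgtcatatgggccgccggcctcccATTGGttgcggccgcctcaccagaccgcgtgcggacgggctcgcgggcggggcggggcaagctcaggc
Of the 8 genes, 6 had windows in the RefSeq table, 10 windows in all. In the 250 bases before each start, the sterol regulatory element matched in SREBF2 alone, beginning at position -133 from the start, with a CCAAT box at -106. Over all 35116 promoter windows of that length, 0.883% held the sterol regulatory element, 6.34% the E-box and 32% the CCAAT box. The CCAAT box matched in at least 1 window each of HMGCS1, INSIG1, IDI1, DHCR7 and SREBF2 and not in that of SREBF1, and the E-box matched in INSIG1 within the part not printed. The CCAAT matches at -132 and -129 of 1 IDI1 window, not printed, share letters, and each motif was counted separately. A match describes the letters and shows no binding.

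In the order of the pathway, HMGCS1 (ENSG00000112972.15, chr5:43289395-43313512, minus strand) encodes the cytosolic synthase that makes HMG-CoA. IDI1 (ENSG00000067064.11, chr10:1039152-1049170, minus strand) encodes the isomerase that interconverts the isoprenoid building blocks. FDFT1 (ENSG00000079459.13, chr8:11795573-11839309, plus strand) encodes squalene synthase, the first step committed to sterols. SQLE (ENSG00000104549.12, chr8:124998497-125022283, plus strand) encodes squalene monooxygenase, which oxidises squalene on the way to the first sterol. DHCR7 (ENSG00000172893.15, chr11:71428193-71452868, minus strand) encodes a reductase at the end of the pathway. INSIG1 (ENSG00000186480.13) lies at chr7:155297776-155310235 on the plus strand, SREBF1 (ENSG00000072310.16) at chr17:17810399-17837002 on the minus strand and SREBF2 (ENSG00000198911.12) at chr22:41833079-41907308 on the plus strand. Positions are whole genes, exons and introns together, in GENCODE release 29 on GRCh38. Exons of HMGCS1, IDI1, FDFT1, SREBF1 and SREBF2 overlap exons of a gene on the other strand (AC114947.2, IDI2-AS1, AC069185.1, RAI1 and SREBF2-AS1). Unstranded counts cannot assign reads there to a strand. Per sample, 9.35% to 11.8% of reads were listed as ambiguous, outside the gene counts. How many of these lie in the overlaps was not tested.

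The counts of reads in genes ran from 11394088 to 32317711 per sample, and the 8 genes had 212 to 21466 reads in every sample. All 7 melanocytic markers had reads in every group, and their summed level ran from 2741 to 22820 CPM (the count scaled to library size, TMM-normalised over the 48 samples). That sum was lower with FHT-1015 at 24 h than in DMSO, 4438 to 5147 against 18760 to 22820 CPM in 92-1, 2741 to 3112 against 7616 to 9752 CPM in MEL202 and 5268 to 5672 against 11880 to 12450 CPM in MP41. It was not in 92-1 with IDE196, 18320 to 20850 against 17650 to 20530 CPM. With FHT-1015 at 4 h it was also lower in 92-1 without overlap, 15230 to 17390 against 20270 to 21770 CPM. Fibroblast markers summed to 2.87 to 43.0 CPM, epithelial markers to 0.503 to 15.1 CPM and immune markers to 0 to 5.93 CPM, and 5 or 6 of the 6 fibroblast markers had reads in each group. With FHT-1015 at 24 h the fibroblast sum was 13.6 to 16.04 against 3.97 to 4.59 CPM in 92-1 and 35.8 to 42.4 against 6.24 to 8.32 CPM in MEL202, and with IDE196 13.6 to 24.1 against 8.47 to 12.7 CPM, while in MP41 it was 29 to 39.2 against 28.5 to 41.6 CPM. Of the 3 fibroblast markers tested in 92-1 with FHT-1015 at 24 h, 2 were higher and 1 lower, beside 29.2% and 31.4% of all genes called. The immune sum was 0.185 to 0.312 against 1.41 to 1.90 CPM in MEL202 and 0.340 to 0.619 against 1.76 to 2.12 CPM in MP41. The part of these marker shifts in the results below was not tested. In bulk RNA, fewer cells of a type and less RNA per cell cannot be told apart.

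In DMSO the lines held these genes at unlike levels, and averaged over both times MP41 was lowest for 7 of the 8, all but SREBF1. For DHCR7 this held at 4 h only: at 24 h its mean was 130.1 CPM in MP41, 110.1 CPM in 92-1 beside FHT-1015 and 125.5 CPM in MEL202, within the spread of the MP41 samples (SD 35.7, n = 3). HMGCS1 stood at 767, 684 and 619 CPM in the 92-1 samples of the FHT-1015 experiment at 4 h, at 153, 244 and 156 CPM in MEL202 and at 42.8, 41.2 and 42.8 CPM in MP41. The 3 lines did not overlap. FDFT1 followed the same order, 1233, 1168 and 1177 CPM in 92-1, 615, 533 and 692 CPM in MEL202 and 97.0, 94.0 and 96.0 CPM in MP41. Over both times the DMSO level of HMGCS1 was 14.1-fold higher in 92-1 than in MP41 (log2 3.82, SE 0.22, adjusted p 3.15e-16, edgeR's quasi-likelihood test) and that of FDFT1 9.57-fold higher (log2 3.26, SE 0.09, adjusted p 5.78e-24). The DMSO level of SREBF1 in 92-1 beside FHT-1015 was 0.394 times that in MEL202 (adjusted p 5.51e-07) and 0.571 times that in MP41 (adjusted p 0.000447). It was also 0.634 times that in the other DMSO set of 92-1 (adjusted p 0.00376), where SREBF1 read 163, 161 and 120 CPM at 4 h against 128, 148 and 136 CPM in MP41, with overlap.

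Of the 8 genes, 5 differed in DMSO between 92-1 and MEL202, where 52.9% of all genes were called; SQLE, DHCR7 and SREBF2 were not, though limma-voom called SQLE (adjusted p 0.0245) and SREBF2 (0.0136), and SREBF2 also passed with the summed stranded columns (0.029) and all 48 samples in 1 fit (0.0378). All 8 differed between 92-1 and MP41, where 65% of all genes were called, and all 8 between MEL202 and MP41, where 56% were called. Line and experiment cannot be told apart in these contrasts. The 2 DMSO sets of 92-1 also differed, in 7 of the 8 genes beside 60.4% of all genes: HMGCS1 was 1.68-fold and IDI1 1.73-fold higher in the set beside FHT-1015, and SREBF2 was 0.682 times the level in the set beside IDE196. The HMGCS1 gap between 92-1 and MP41 was larger than that between sets of 1 line, while for DHCR7 the gap to MP41 (log2 0.39) was of similar size to that between the sets (-0.31). The calls on DHCR7 were lost between 92-1 and MP41 with library size alone (adjusted p 0.0774) or without MP41 DMSO 24 h replicate 3 (0.0647), between MEL202 and MP41 with only the compared samples (0.0906) or without MEL202 DMSO 4 h replicate 1 (0.26 in place of 0.41, adjusted p 0.0891), and between the sets with all 48 samples in 1 fit (0.0756). INSIG1 was not called between the sets without DMSO 4 h replicate 2 of the FHT-1015 experiment.

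Per kilobase of exon, which puts genes on 1 scale, the order within 92-1 DMSO at 4 h in the FHT-1015 experiment was FDFT1 (229 ± 6.69 CPM per kb, SD, n = 3), SQLE (183 ± 10.7), HMGCS1 (147 ± 15.7), IDI1 (70.7 ± 7.37), INSIG1 (50.3 ± 9.20), SREBF2 (48.4 ± 0.705), DHCR7 (43.1 ± 4.22) and SREBF1 (12.5 ± 4.60). INSIG1 could not be ordered against SREBF2 or DHCR7 beyond its own spread. In MP41 DMSO at 4 h SQLE led with 113 ± 10.8 CPM per kb and the other 7 genes lay between 8.99 (HMGCS1) and 20.6 (DHCR7). In MEL202 DMSO at 4 h SQLE (173 ± 25.1) and FDFT1 (118 ± 15.3) led and SREBF1 (33.7 ± 8.45), IDI1 (37.0 ± 19.2), DHCR7 (38.0 ± 14.9), HMGCS1 (39.2 ± 11) and SREBF2 (40.6 ± 10.8) could not be ordered beyond their spread. The exon length counts every annotated exon, so it sets only a rough scale.

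**Figure D1:**
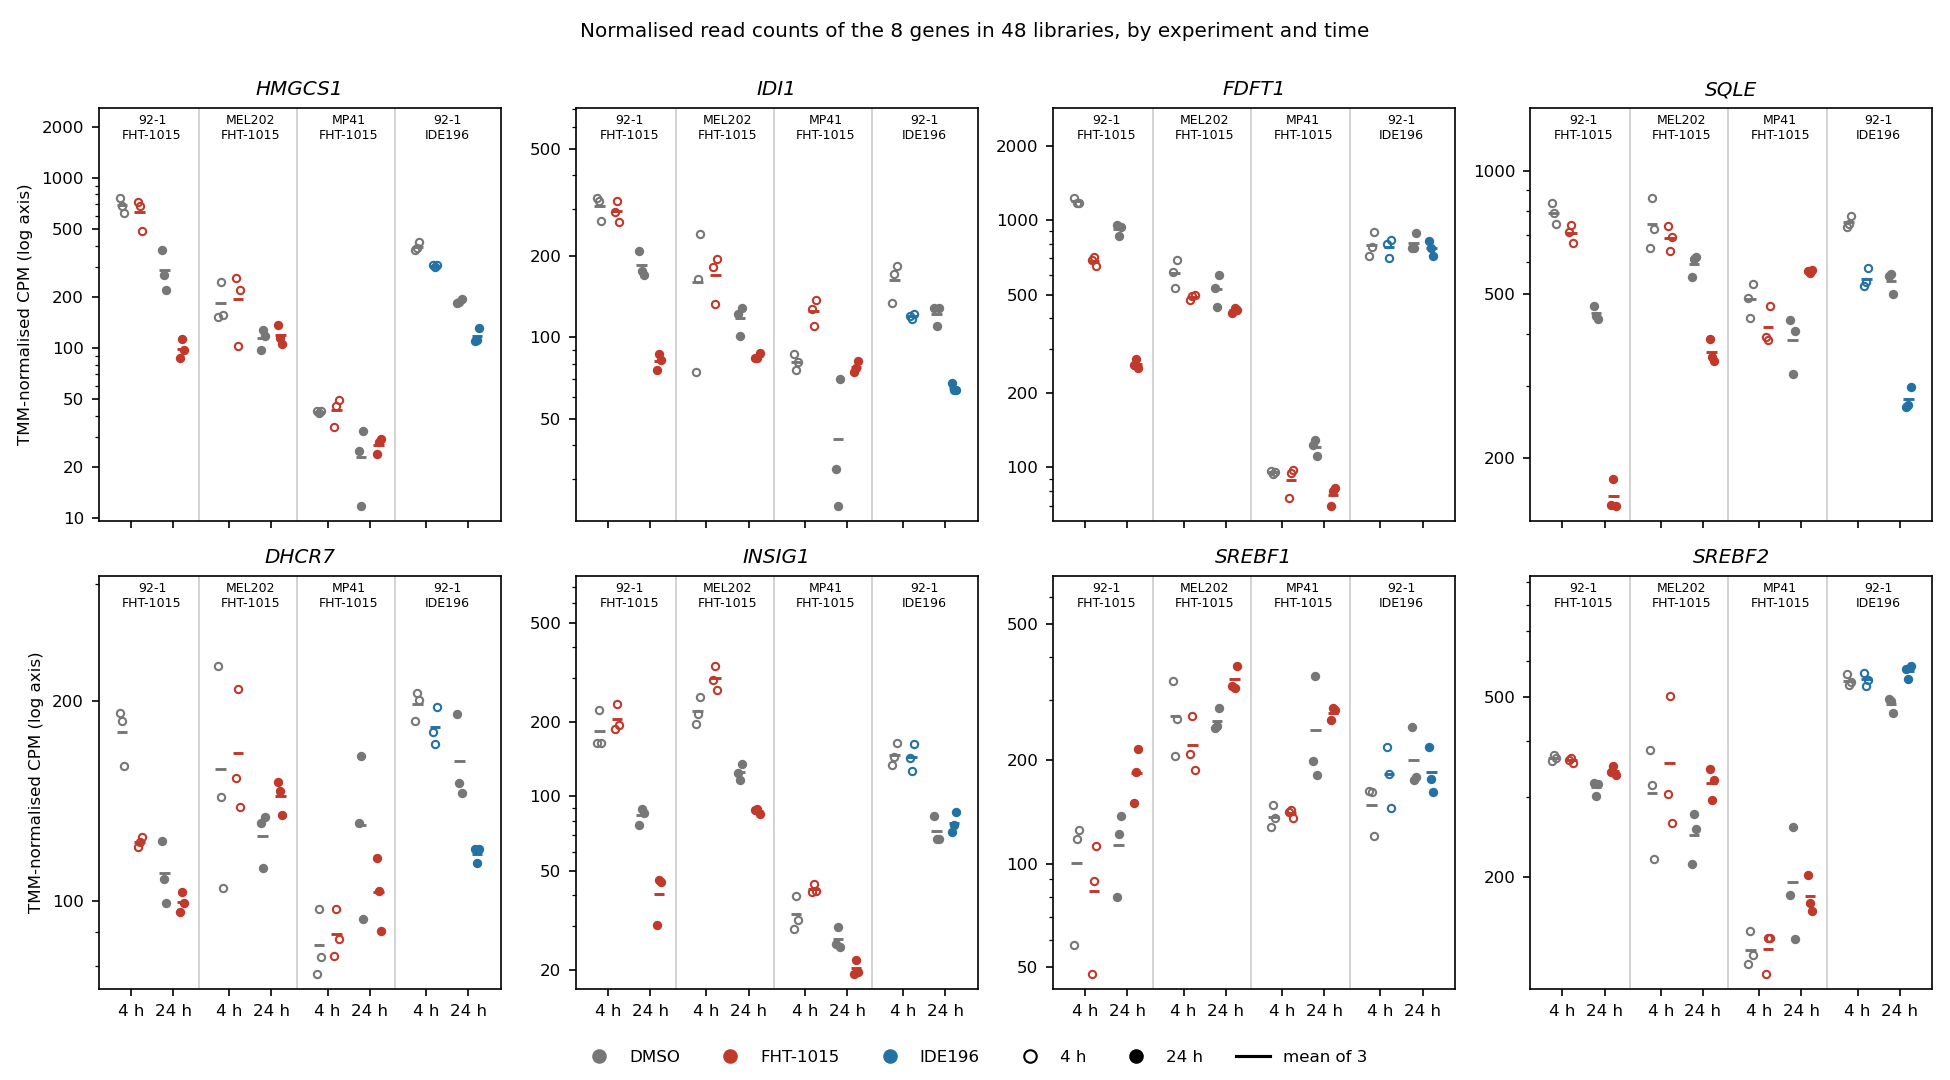
TMM-normalised CPM (log axis) of each gene in the 48 libraries, by experiment and time, open points at 4 h and filled points at 24 h, with lines at the mean of 3. MP41 stands lowest for HMGCS1 and FDFT1, and the FHT-1015 points at 24 h lie apart from DMSO for HMGCS1, IDI1, FDFT1, SQLE and INSIG1 in 92-1.

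The DMSO samples themselves changed between 4 h and 24 h in 92-1. In the FHT-1015 experiment of that line HMGCS1 went from 767, 684 and 619 CPM to 375, 270 and 220 CPM, and INSIG1 from 165, 222 and 164 CPM to 76.6, 88.9 and 86.0 CPM. Every 24 h sample lay below every 4 h sample for both. HMGCS1 fell by 1.23 on the log2 scale (SE 0.17, adjusted p 0.00494), INSIG1 fell by 1.09 (SE 0.16, adjusted p 0.00495), SQLE fell by 0.78 (adjusted p 0.00115), IDI1 fell by 0.70 (adjusted p 0.00521) and DHCR7 fell by 0.67 (adjusted p 0.00412), all by edgeR. These are 5 of the 8 genes, against 54 of 15685 genes tested, or 0.344%. With all 48 samples in 1 fit IDI1 (adjusted p 1) and DHCR7 (0.34) lost the call. FDFT1 was not called (log2 -0.34, adjusted p 0.085) but passed with DESeq2 (-0.35, adjusted p 0.000163) and limma-voom (-0.33, adjusted p 0.0115). SREBF1 (0.21, adjusted p 0.891) and SREBF2 (-0.18, adjusted p 0.451) were not called.

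The second DMSO set of 92-1, beside IDE196, is a separate set of samples. HMGCS1 went from 376, 388 and 419 CPM to 183, 186 and 194 CPM there, and INSIG1 from 133, 144 and 164 CPM to 83.7, 67.6 and 67.2 CPM. HMGCS1 fell by 1.07 (SE 0.08, adjusted p 5.57e-06), INSIG1 fell by 1.01 (SE 0.12, adjusted p 0.000802) and SQLE fell by 0.48 (SE 0.08, adjusted p 0.0134). These 3 of 8 genes stand beside 41 of 15437 genes, or 0.266%. The call on SQLE was lost in 3 of the fits that left out 1 library, with DMSO 4 h replicate 6 (adjusted p 0.0596), 24 h replicate 4 (0.0676) or 24 h replicate 6 (0.119) removed. In this set HMGCS1 (adjusted p 0.157) and SQLE (0.22) lost the call with all 48 samples in 1 fit, and SQLE also with only the compared samples (0.066). IDI1 (-0.42, adjusted p 0.0997) was called with no low-count filter (0.00478), DESeq2 (0.00807) and limma-voom (0.0107). FDFT1 differed by 0.02 with a 95% interval of -0.17 to 0.22.

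In MEL202 no gene of the genome was called between the DMSO times, so 0 of 8 stand beside 0%, with 330 of 15913 genes at an unadjusted p under the same 0.05. The 8 fold changes were all below 0, from -0.08 for SREBF1 to -0.85 for INSIG1, which all 48 samples in 1 fit called (adjusted p 0.0392). In MP41 0 of 8 were called beside 2.59% of all genes; HMGCS1 (-0.93, SE 0.27, adjusted p 0.074), IDI1 (-0.99, SE 0.29, adjusted p 0.0767) and SREBF1 (0.77, SE 0.20, adjusted p 0.0569) missed the threshold. Those 3 passed it with no low-count filter, DESeq2, limma-voom and all 48 samples in 1 fit, with adjusted p up to 0.0212. The count depended on 1 library: MP41 DMSO at 24 h read 32.6, 23.8 and 70.0 CPM for IDI1 and 24.8, 11.8 and 32.4 CPM for HMGCS1, and without replicate 3 the number called was 6 of 8 beside 42.6% of all genes, with HMGCS1 at -1.21, IDI1 at -1.52 and SREBF1 at 1.01.

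**Figure D2:**
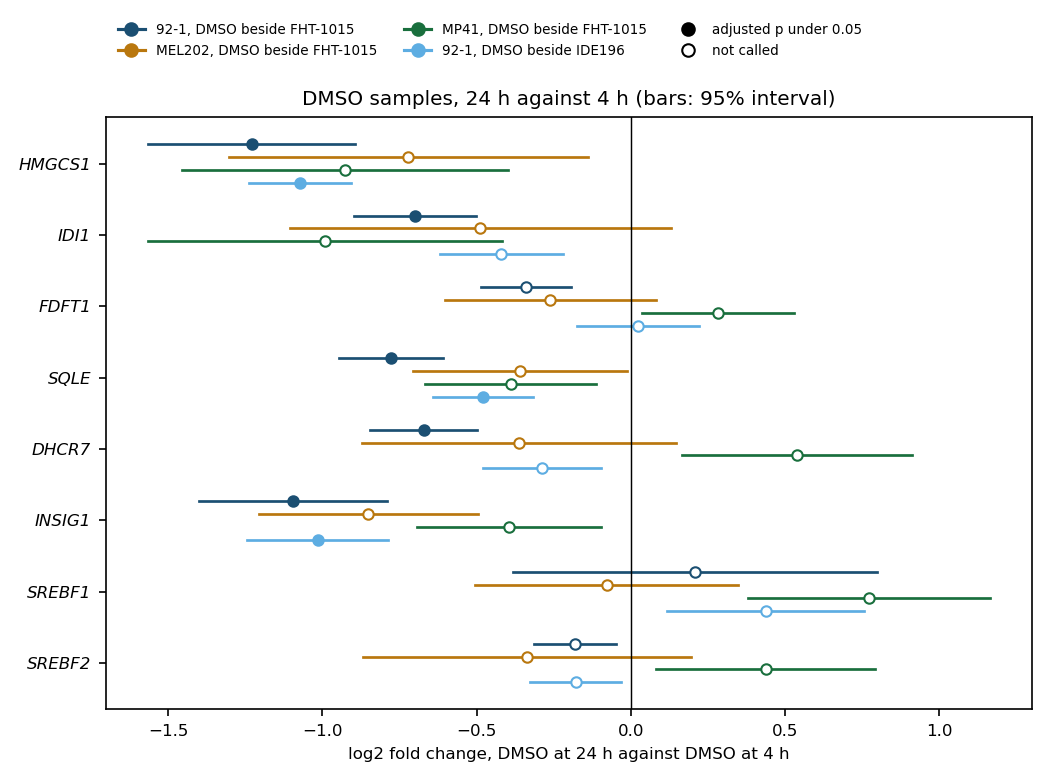
Log2 fold change of each gene in DMSO samples at 24 h against 4 h, with 95% intervals, in the 4 experiments; filled points were called at an adjusted p under 0.05. HMGCS1, INSIG1 and SQLE were lower at 24 h in both DMSO sets of 92-1, while FDFT1, SREBF1 and SREBF2 have no filled point.

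FHT-1015 lowered most of the synthesis genes in 92-1 at 24 h, below the level that the DMSO samples had reached. FDFT1 read 260, 275 and 251 CPM with the drug against 956, 866 and 941 CPM in DMSO. SQLE read 154, 178 and 153 CPM against 468, 443 and 437 CPM, and HMGCS1 87.9, 112 and 97.3 CPM against 375, 270 and 220 CPM. No treated sample reached any DMSO sample for these 3 genes. FDFT1 fell by 1.76 on the log2 scale, to 0.295 times DMSO (SE 0.08, adjusted p 5.44e-11), HMGCS1 fell by 1.48 (0.358 times, SE 0.18, adjusted p 2.69e-06) and SQLE fell by 1.43 (0.372 times, SE 0.09, adjusted p 1.87e-09). IDI1, at 75.4, 87.0 and 82.2 CPM against 208, 176 and 170 CPM, fell by 1.13 (SE 0.10, adjusted p 1.67e-07). DHCR7 did not pass, at 96.5, 103 and 99.4 CPM against 123, 108 and 99.2 CPM (log2 -0.09, 95% interval -0.27 to 0.08, adjusted p 0.398).

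INSIG1 in 92-1 read 30.5, 45.9 and 45.2 CPM with FHT-1015 at 24 h against 76.6, 88.9 and 86.0 CPM in DMSO, and fell by 1.00 (SE 0.16, adjusted p 6.49e-05). In all, 5 of the 8 genes were called lower beside 31.4% of all genes tested, and 2 were called higher beside 29.2%, so called genes were common in this comparison. The 2 that rose were the transcription factor genes. SREBF1 read 150, 185 and 216 CPM against 79.7, 122 and 138 CPM, without overlap (log2 0.75, SE 0.30, adjusted p 0.0427). SREBF2 read 340, 351 and 335 CPM against 322, 302 and 321 CPM, also without overlap but only 1.12-fold apart (log2 0.17, SE 0.07, adjusted p 0.0424).

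Both calls on the SREBF genes lay close to the threshold and depended on the fit. SREBF1 lost its call in 6 of 12 fits that left out 1 library, most without DMSO 24 h replicate 1 (0.53, adjusted p 0.173) and FHT-1015 24 h replicate 3 (0.63, adjusted p 0.13), and SREBF2 in 9 of 12, most without FHT-1015 24 h replicate 2 (0.13, adjusted p 0.178). Replicate 1 of this experiment read lowest for SREBF1 in each of its 4 groups (57.9, 79.7, 47.7 and 150 CPM). Replicate 3 read highest in each (125, 138, 113 and 216 CPM). With a replicate block both calls held. DESeq2 (adjusted p 0.126) and the sum of the stranded columns (0.64, adjusted p 0.0645) also lost the call on SREBF1 at 24 h. SREBF2 lost it with no low-count filter (adjusted p 0.323), with only the compared samples (0.0749) and with all 48 samples in 1 fit (0.441).

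At 4 h in 92-1 fewer of the genes were called, both of them enzyme genes. FDFT1 read 689, 711 and 653 CPM with FHT-1015 against 1233, 1168 and 1177 CPM, and DHCR7 121, 123 and 125 CPM against 192, 187 and 160 CPM. Neither pair of groups overlapped. FDFT1 fell by 0.78 (SE 0.08, adjusted p 1.49e-06) and DHCR7 fell by 0.52 (SE 0.09, adjusted p 0.000353), 2 of 8 genes lower beside 16.7% of all genes, and 0 of 8 were higher beside 12.9%. With all 48 samples in 1 fit DHCR7 was not called (adjusted p 0.0691). HMGCS1 (-0.11, 95% interval -0.44 to 0.22), INSIG1 (0.19, -0.11 to 0.49), SQLE (-0.14, -0.30 to 0.03), IDI1 (-0.04, -0.24 to 0.15), SREBF1 (-0.25, -0.84 to 0.34) and SREBF2 (0.01, -0.13 to 0.14) were not called.

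The change of effect between the times was called for 6 of the 8 genes in 92-1, beside 45.5% of all genes. HMGCS1 (-1.38, SE 0.24), SQLE (-1.29, SE 0.12), INSIG1 (-1.19, SE 0.22), IDI1 (-1.08, SE 0.14) and FDFT1 (-0.98, SE 0.11) had a more negative effect at 24 h than at 4 h, with adjusted p from 7.28e-07 for SQLE to 0.000457 for INSIG1. DHCR7 moved the other way (0.43, SE 0.13, adjusted p 0.0108): its DMSO level fell between the times while its treated level was 123 ± 2.17 CPM at 4 h and 99.7 ± 3.46 CPM at 24 h (SD, n = 3). The call on DHCR7 was lost with all 48 samples in 1 fit (adjusted p 0.261). SREBF1 was not called (1.00, adjusted p 0.0688) but passed with no low-count filter (1.08e-09), limma-voom (0.0329), all 48 samples in 1 fit (0.0432) and a replicate block (0.000125), and in 2 fits without 1 library. In those 4 alternatives its size was 0.97, 0.87, 1.00 and 1.035, so the adjusted p moved far more than the size. The effect of FHT-1015 at 24 h and the DMSO change over time share the 24 h DMSO samples, so the 2 lists of values are not independent of each other.

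In MEL202 SQLE was the 1 gene of the 8 called. It read 390, 352 and 344 CPM with FHT-1015 at 24 h against 553, 609 and 616 CPM in DMSO, without overlap, and fell by 0.66 (SE 0.18, adjusted p 0.0187). That is 1 of 8 genes lower beside 10.1% of all genes, with 0 higher beside 8.69%. Leaving out DMSO 24 h replicate 2 (adjusted p 0.0642) or 3 (0.0698), or FHT-1015 24 h replicate 2 (0.0846) or 3 (0.102), ended the call, with SQLE between -0.65 and -0.61, as did omitting the low-count filter (0.0896). HMGCS1, which fell by 1.48 on the log2 scale in 92-1, read 136, 115 and 106 CPM against 97.8, 127 and 118 CPM (0.11, 95% interval -0.47 to 0.69).

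The other values of MEL202 at 24 h missed the threshold although several groups did not overlap. INSIG1 read 88.4, 89.3 and 84.8 CPM against 124, 116 and 135 CPM (-0.46, SE 0.18, adjusted p 0.0916), and SREBF1 329, 327 and 378 CPM against 248, 252 and 285 CPM (0.45, SE 0.22, adjusted p 0.179). In a fit of the compared samples alone INSIG1 (-0.47, adjusted p 0.00642), IDI1 (-0.42, adjusted p 0.0155), SREBF1 (0.44, adjusted p 0.0134) and SREBF2 (0.42, adjusted p 0.0343) were called too, which with SQLE made 3 lower and 2 higher beside 20.5% of all genes in each direction. limma-voom called these 5 and FDFT1 (-0.32, adjusted p 0.00674) beside 27.3% lower and 28.2% higher, and all 48 samples in 1 fit called INSIG1 (adjusted p 0.0119). The 4 h samples of this line spread widely, with IDI1 in DMSO at 74.7, 165 and 242 CPM. At 4 h 0 of 8 genes were called, beside 0.157% higher and 0.522% lower over all genes. Between the times the effect on INSIG1 changed by -0.92 (SE 0.26, adjusted p 0.0448), 1 of 8 genes beside 6.89%, and this call was lost in 10 of the 12 fits that left out 1 library (adjusted p up to 0.129, without FHT-1015 24 h replicate 3), with RLE normalisation (0.0506), with no low-count filter (0.177) and with a replicate block (0.0695).

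In MP41 at 24 h SQLE and IDI1 were higher with FHT-1015 and FDFT1 was lower. SQLE read 570, 563 and 573 CPM against 433, 320 and 407 CPM, IDI1 74.4, 77.0 and 81.6 CPM against 32.6, 23.8 and 70.0 CPM, and FDFT1 69.9, 80.3 and 82.7 CPM against 123, 130 and 111 CPM. None of the 3 pairs of groups overlapped, although the highest DMSO sample for IDI1 came close to the treated ones. SQLE rose by 0.66 (SE 0.14, adjusted p 0.00278), IDI1 rose by 0.97 (SE 0.29, adjusted p 0.0193) and FDFT1 fell by 0.54 (SE 0.13, adjusted p 0.00447). That is 2 of 8 genes higher beside 17.4% of all genes and 1 lower beside 18.7%, shares near the background.

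The treated IDI1 level at 24 h (77.7 ± 3.64 CPM, SD, n = 3) lay below the treated level at 4 h (124.9 ± 13.6 CPM), and the DMSO level at 24 h (42.1 ± 24.5 CPM) lay below that at 4 h (81.1 ± 5.54 CPM). The treated samples lay above DMSO without overlap at both times. IDI1 lost its call without DMSO 24 h replicate 1 (0.81, adjusted p 0.0839) or FHT-1015 24 h replicate 3 (0.96, adjusted p 0.0513), and with only the compared samples (0.93, adjusted p 0.0901). Its size ranged from 0.68 without DMSO 24 h replicate 2 to 1.51 without DMSO 24 h replicate 3. Without DMSO 24 h replicate 3, HMGCS1 (0.61, adjusted p 0.0345) and DHCR7 (-0.48, adjusted p 0.0238) were called as well, and without DMSO 24 h replicate 2, SREBF1 (0.62, adjusted p 0.00112). limma-voom called DHCR7 (0.0204) and SREBF1 (0.000103). With all libraries HMGCS1 stood at 0.32 (95% interval -0.20 to 0.85), INSIG1 at -0.29 (-0.59 to 0.01) and SREBF2 at 0.01 (-0.35 to 0.36). At 4 h 0 of 8 genes were called in MP41, beside 0.0708% higher and 0.154% lower over all genes; IDI1 stood at 0.63 (SE 0.29, adjusted p 0.846; 0.0338 without DMSO 24 h replicate 3, 0.00631 with only the compared samples and 0.00155 by limma-voom). Between the times the change of effect was called for SQLE (0.88, SE 0.20, adjusted p 0.00825), 1 of 8 genes beside 18.6%. That of INSIG1 (-0.63, SE 0.22, adjusted p 0.0569) was called with DESeq2 (0.0413), limma-voom (0.00956), all 48 samples in 1 fit (0.0193) and a replicate block (0.0397), and without DMSO 4 h replicate 2 (0.0374) or DMSO 24 h replicate 3 (0.0133). Without DMSO 24 h replicate 3, 4 of 8 were called beside 36.3% of all genes. Among them were IDI1 (0.86, adjusted p 0.00392, in place of 0.34 and 0.607) and FDFT1 (-0.57, 0.0207, in place of -0.44 and 0.0998). The change for SREBF1 (0.23, adjusted p 0.606) was called without DMSO 24 h replicate 2 (0.57, 0.0199). limma-voom called IDI1 (0.70, 0.00179), FDFT1 (-0.47, 0.00231) and SREBF1 (0.56, 0.00269), beside 47.3% of all genes. All 48 samples in 1 fit called FDFT1 (0.0183).

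**Figure D3:**
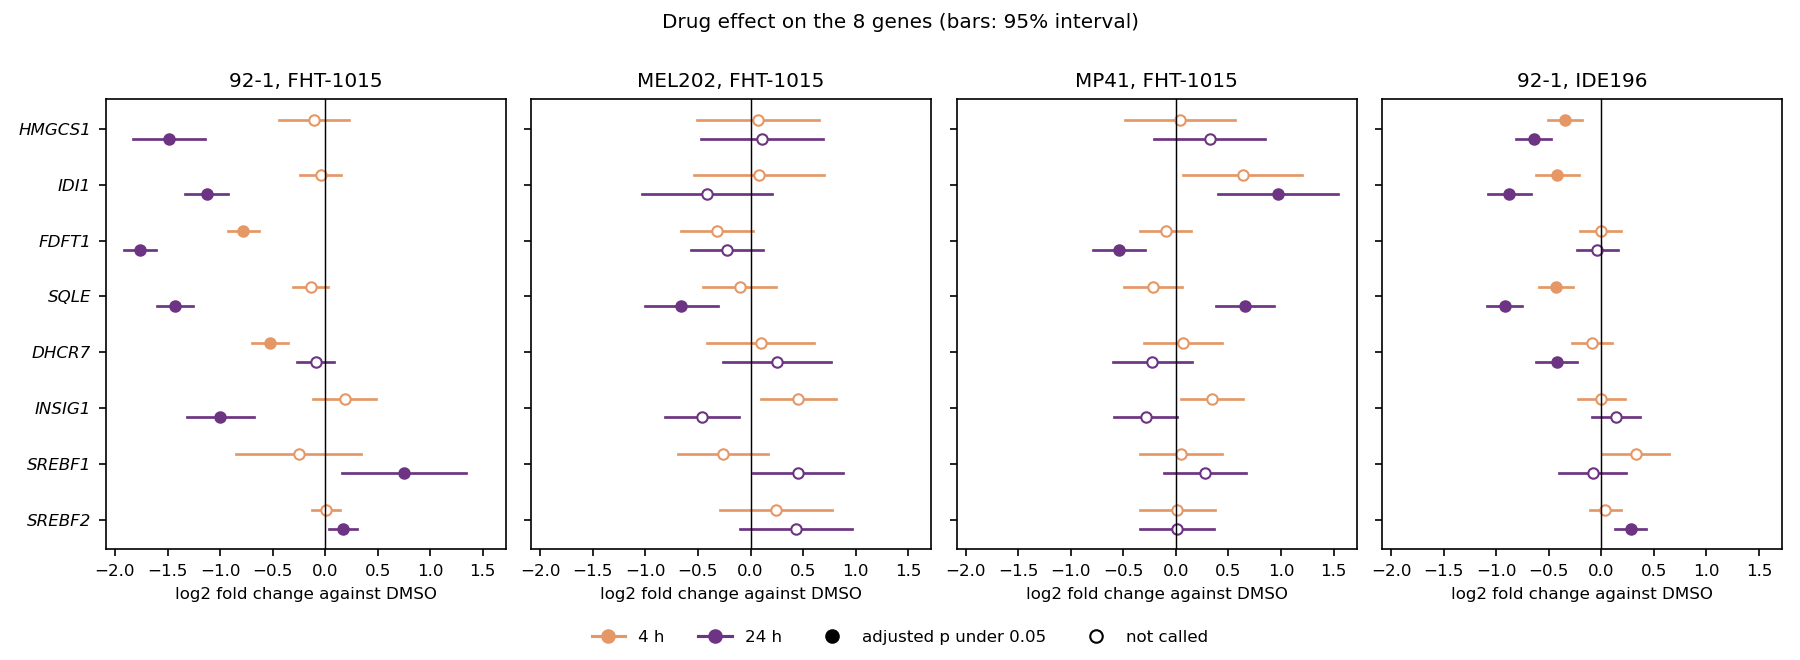
Log2 fold change of each gene against DMSO of the same experiment and time, with 95% intervals, at 4 h and 24 h; filled points were called at an adjusted p under 0.05. At 24 h FHT-1015 gave negative values for SQLE and IDI1 in 92-1 and positive ones in MP41, and IDE196 lowered HMGCS1, IDI1, SQLE and DHCR7, while FDFT1 and INSIG1 were not called.

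Whether the lines differ in their response was tested directly in a fit of the 36 FHT-1015 samples. Line and experiment cannot be told apart in this test. The fit also shares its estimate of the spread across lines whose own fits had biological coefficients of variation of 0.117 (92-1), 0.294 (MEL202) and 0.217 (MP41). At 24 h the effect differed among lines for HMGCS1 (adjusted p 0.00334), SQLE (1.13e-08), IDI1 (0.00142) and FDFT1 (2.23e-07), 4 of 8 genes beside 12% of all genes. For SQLE the 3 effects were -1.43, -0.66 and 0.66 in 92-1, MEL202 and MP41, and for IDI1 they were -1.13, -0.41 and 0.97. For FDFT1 the sign was shared (-1.76, -0.23 and -0.54). The test did not pass for INSIG1 (adjusted p 0.136), DHCR7 (0.396), SREBF1 (0.554) or SREBF2 (0.463), but INSIG1 passed with a replicate block (0.0439), and limma-voom called INSIG1 (0.0216), DHCR7 (0.00477) and SREBF2 (0.0128). At 4 h it passed for 0 of 8 genes, beside 1.38%, with FDFT1 at 0.0692; for FDFT1 it fell under the threshold with DESeq2 (0.000395), limma-voom (4.79e-05) and all 48 samples in 1 fit (0.0317), and in 3 fits without 1 library, without MEL202 DMSO 4 h replicate 2 (0.0459) or 3 (0.0312) or without MP41 FHT-1015 4 h replicate 1 (0.0403).

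IDE196 in 92-1 lowered HMGCS1, SQLE and IDI1 at both times. At 4 h HMGCS1 read 308, 299 and 306 CPM against 376, 388 and 419 CPM, SQLE 524, 537 and 579 CPM against 732, 744 and 775 CPM, and IDI1 120, 117 and 122 CPM against 134, 172 and 184 CPM. None of these groups overlapped. HMGCS1 fell by 0.35 (SE 0.08, adjusted p 0.007), SQLE fell by 0.43 (SE 0.08, adjusted p 0.00133) and IDI1 fell by 0.42 (SE 0.10, adjusted p 0.00857), 3 of 8 genes lower beside 9.3% of all genes, with 0 higher beside 6.89%. HMGCS1 (adjusted p 0.623) and IDI1 (0.498) lost the call with all 48 samples in 1 fit. INSIG1 (0.00, 95% interval -0.23 to 0.22) and FDFT1 (-0.01, -0.20 to 0.19) were close to DMSO.

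At 24 h with IDE196 HMGCS1 read 110, 111 and 130 CPM against 183, 186 and 194 CPM, SQLE 267, 268 and 298 CPM against 555, 562 and 500 CPM, and IDI1 67.5, 63.6 and 63.6 CPM against 129, 110 and 128 CPM. SQLE fell by 0.92 (SE 0.08, adjusted p 5.29e-08), IDI1 fell by 0.88 (SE 0.10, adjusted p 1.37e-06), HMGCS1 fell by 0.64 (SE 0.08, adjusted p 4.17e-06) and DHCR7 fell by 0.43 (SE 0.10, adjusted p 0.00118). SREBF2, at 577, 548 and 586 CPM against 494, 488 and 460 CPM, rose by 0.28 (SE 0.08, adjusted p 0.00382). These 4 lower and 1 higher of 8 stand beside 29.4% and 28.7% of all genes. With all 48 samples in 1 fit the calls on HMGCS1 (adjusted p 0.0514), DHCR7 (0.103) and SREBF2 (0.15) were lost. FDFT1 read 825, 768 and 718 CPM against 770, 771 and 890 CPM (-0.04, 95% interval -0.23 to 0.16) and INSIG1 71.99, 76.8 and 86.4 CPM against 83.7, 67.6 and 67.2 CPM (0.14, -0.09 to 0.37), both overlapping.

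Between 4 h and 24 h the IDE196 effect grew for SQLE (-0.49, SE 0.12, adjusted p 0.00388) and IDI1 (-0.46, SE 0.15, adjusted p 0.0232), 2 of 8 genes beside 30.7% of all genes. The call on IDI1 was lost without DMSO 24 h replicate 4 (adjusted p 0.0576), DMSO 24 h replicate 6 (0.053) or IDE196 24 h replicate 2 (0.0512). A fit of all 48 samples gave adjusted p 0.0721 for SQLE and 0.53 for IDI1, neither of them called. HMGCS1 stood at -0.30 (adjusted p 0.0673; 0.0173 without IDE196 24 h replicate 3, 0.0359 with DESeq2 and 0.0319 by limma-voom), SREBF2 at 0.25 (adjusted p 0.0903; 0.0333 with DESeq2) and DHCR7 at -0.34 (adjusted p 0.073; 0.0355 without DMSO 24 h replicate 6).

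The 2 drugs were compared in 92-1, each against its own DMSO, so the contrasts share no sample. At 24 h FDFT1 (-1.73, SE 0.13, adjusted p 3.82e-11), INSIG1 (-1.14, SE 0.21, adjusted p 9.97e-05), HMGCS1 (-0.84, SE 0.20, adjusted p 0.00185) and SQLE (-0.51, SE 0.12, adjusted p 0.00121) had a more negative effect with FHT-1015 than with IDE196, 4 of 8 genes beside 33% of all genes. Of these, FDFT1 and INSIG1 were not called with IDE196. The difference for HMGCS1 lost its call with all 48 samples in 1 fit (adjusted p 0.0823) and was -0.53 by limma-voom (adjusted p 0.0138). For IDI1 the difference was -0.25 with a 95% interval of -0.55 to 0.04 (adjusted p 0.218). The differences for DHCR7 (0.33, SE 0.13, adjusted p 0.0595) and SREBF1 (0.83, SE 0.37, adjusted p 0.0921) were positive and missed the threshold. DHCR7 passed it with library size alone (0.03), DESeq2 (0.0465) and limma-voom (0.00469) and in 8 fits without 1 library, and SREBF1 with only the compared samples (0.0195), with no low-count filter and in 2 fits without 1 library. At 4 h FDFT1 (-0.78, SE 0.13, adjusted p 5.32e-05) and DHCR7 (-0.44, SE 0.13, adjusted p 0.0159) were lower with FHT-1015, 2 of 8 beside 24.6%, while SQLE (0.29, adjusted p 0.07) and IDI1 (0.37, adjusted p 0.0714) missed the threshold. SQLE passed it with library size alone (0.0387), DESeq2 (0.0241) and limma-voom (0.0111), and IDI1 with library size alone (0.0425), limma-voom (0.00239) and the summed stranded columns (0.0494). The call on DHCR7 was lost without DMSO 4 h replicate 1 of the FHT-1015 experiment (adjusted p 0.0546) or IDE196 4 h replicate 3 (0.0549), with no low-count filter (0.0511) and with all 48 samples in 1 fit (0.397). FHT-1015 and IDE196 act on different proteins, no dose stands in the labels, and drug and experiment cannot be told apart in this contrast.

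The rest of the synthesis pathway was taken from a list of 18 enzyme genes, 13 of them not among the 8. With FHT-1015 at 24 h in 92-1, 8 of these 13 were called lower beside 31.4% of all genes and 2 higher beside 29.2%, with a median log2 fold change of -0.54 against -0.000817 for all genes tested. MSMO1, which encodes a sterol methyl oxidase, read 28.0, 37.1 and 35.8 CPM against 87.5, 86.9 and 69.8 CPM and fell by 1.22 (adjusted p 2.59e-06), the largest fall among the 13. Its treated and DMSO samples did not overlap. In MP41 at 24 h 3 of the 13 were higher beside 17.4% and 2 lower beside 18.7%, shares near those of all genes, and CYP51A1, the lanosterol demethylase gene, fell by 1.38 (adjusted p 0.00909). In MEL202 at 24 h 1 was higher beside 8.69% and 0 lower beside 10.1%. With IDE196 at 24 h 1 was higher beside 28.7% and 5 lower beside 29.4%, with the largest fall for EBP, a sterol isomerase gene, which read 14.0, 14.3 and 15.6 CPM against 22.6, 23.2 and 19.3 CPM and fell by 0.53 (adjusted p 0.000439; 0.0738 with all 48 samples in 1 fit).

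TM7SF2, which encodes a sterol C14 reductase, rose with each drug and in each line at 24 h. With FHT-1015 at 24 h it read 32.2, 37.9 and 38.2 CPM against 2.22, 4.79 and 4.17 CPM in 92-1 and 55.0, 65.4 and 58.4 CPM against 8.75, 9.16 and 8.29 CPM in MEL202. The treated samples stood far above DMSO in both. TM7SF2 rose by 3.34 in 92-1 (SE 0.32, adjusted p 2.89e-07), by 2.82 in MEL202 (SE 0.21, adjusted p 1.94e-06), by 1.20 in MP41 (SE 0.21, adjusted p 0.000596) and by 0.93 with IDE196 in 92-1 (SE 0.15, adjusted p 3.06e-05), the largest rise of the list in each. At 4 h MVD, the decarboxylase that makes isopentenyl diphosphate, had the largest rise of the list with FHT-1015 in 92-1 (0.90, adjusted p 0.000155), where 2 of the 13 were higher beside 12.9% of all genes and 0 lower beside 16.7%.

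Between the DMSO times 6 of the 13 further synthesis genes were lower in 92-1 beside FHT-1015 and 2 beside IDE196, with none higher, against 0.344% and 0.266% of all genes called in either direction. MSMO1 fell by 1.02 in the first set (adjusted p 0.00443) and by 0.83 in the second (adjusted p 0.0134), and SC5D, a sterol desaturase gene, fell by 0.70 (adjusted p 0.0143) and by 0.65 (adjusted p 0.00988). These 2 genes were the 2 of the second set, and they were named after their values were seen. The median of the 13 was -0.69 in the first set and -0.50 in the second and in MEL202. It was 0.24 in MP41, where 1 of 13 was called lower, beside 2.59% of all genes called in either direction.

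Of the 4 other genes of SREBP control, INSIG2, the second INSIG gene, rose with FHT-1015 at 24 h in 92-1 (0.68, adjusted p 0.000448) and in MP41 (1.24, adjusted p 0.0429), the only 1 of the 4 called there, beside 29.2% and 17.4% of all genes higher. The call in 92-1 was lost with all 48 samples in 1 fit (0.12). That in MP41 was lost with only the compared samples (0.135) and in 10 of the 12 fits without 1 library (up to 0.119, without DMSO 24 h replicate 1), and its size ran from 0.79 without DMSO 24 h replicate 2 to 1.99 without DMSO 24 h replicate 3. MBTPS1, the first of the Golgi proteases, fell by 0.32 with IDE196 at 24 h (adjusted p 0.00457; 0.113 with all 48 samples in 1 fit), 1 of 4 beside 29.4% lower. Neither SCAP nor MBTPS2 was called in any of the 8 drug comparisons. Of 6 genes of sterol uptake and transport, 5 were tested, with 1 higher and 2 lower with FHT-1015 at 24 h in 92-1, beside 29.2% and 31.4% of all genes, and 3 higher and 2 lower with IDE196, beside 28.7% and 29.4%. SOAT1, which encodes an enzyme that esterifies cholesterol for storage, had the largest fall of these in both. It read 55.5, 55.5 and 55.7 CPM with FHT-1015 against 176, 142 and 146 CPM and fell by 1.43 (adjusted p 3.01e-09), and with IDE196 it fell by 0.88 (adjusted p 1.82e-05).

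Of 9 genes of fatty acid synthesis, many known to follow SREBP-1, 5 were lower and 1 higher with FHT-1015 at 24 h in 92-1, 1 and 1 in MEL202, 4 and 1 in MP41, and 6 and 1 with IDE196 in 92-1. The shares of all genes called lower in these comparisons were 31.4%, 10.1%, 18.7% and 29.4%, so the count in MEL202 was near the background. The shares called higher were 29.2%, 8.69%, 17.4% and 28.7%, so a count of 1 higher was near or below the background. The gene that rose was ACSS2, acetyl-CoA synthetase, in each of these 4 comparisons (0.74, 1.03, 0.56 and 1.19). The call in MP41 was lost with no low-count filter (adjusted p 0.0524), with only the compared samples (0.136), and without DMSO 24 h replicate 3 (0.36, adjusted p 0.0588) or FHT-1015 24 h replicate 2 (0.49). ELOVL6, a fatty acid elongase, had the largest fall in 92-1 (-1.83), MEL202 (-1.57) and with IDE196 (-1.14), and FASN, the fatty acid synthase, in MP41 (-1.59, adjusted p 0.000313). Of the 6 genes of liver X receptors and efflux, 5 were tested in 92-1, where 2 were higher with FHT-1015 at 24 h and 4 with IDE196, beside 29.2% and 28.7% of all genes, and 1 was lower with each drug. In MEL202 and in MP41 1 of 6 was higher, beside 8.69% and 17.4%, and 0 were lower. ABCA1, the cholesterol efflux pump, rose by 1.79 in MEL202 (adjusted p 0.0116; 0.0575 without DMSO 24 h replicate 1), by 1.82 in MP41 (adjusted p 2.28e-05) and by 1.71 with IDE196 (adjusted p 4.3e-06), while in 92-1 with FHT-1015 it stood at 0.61 (adjusted p 0.293).

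**Figure D4:**
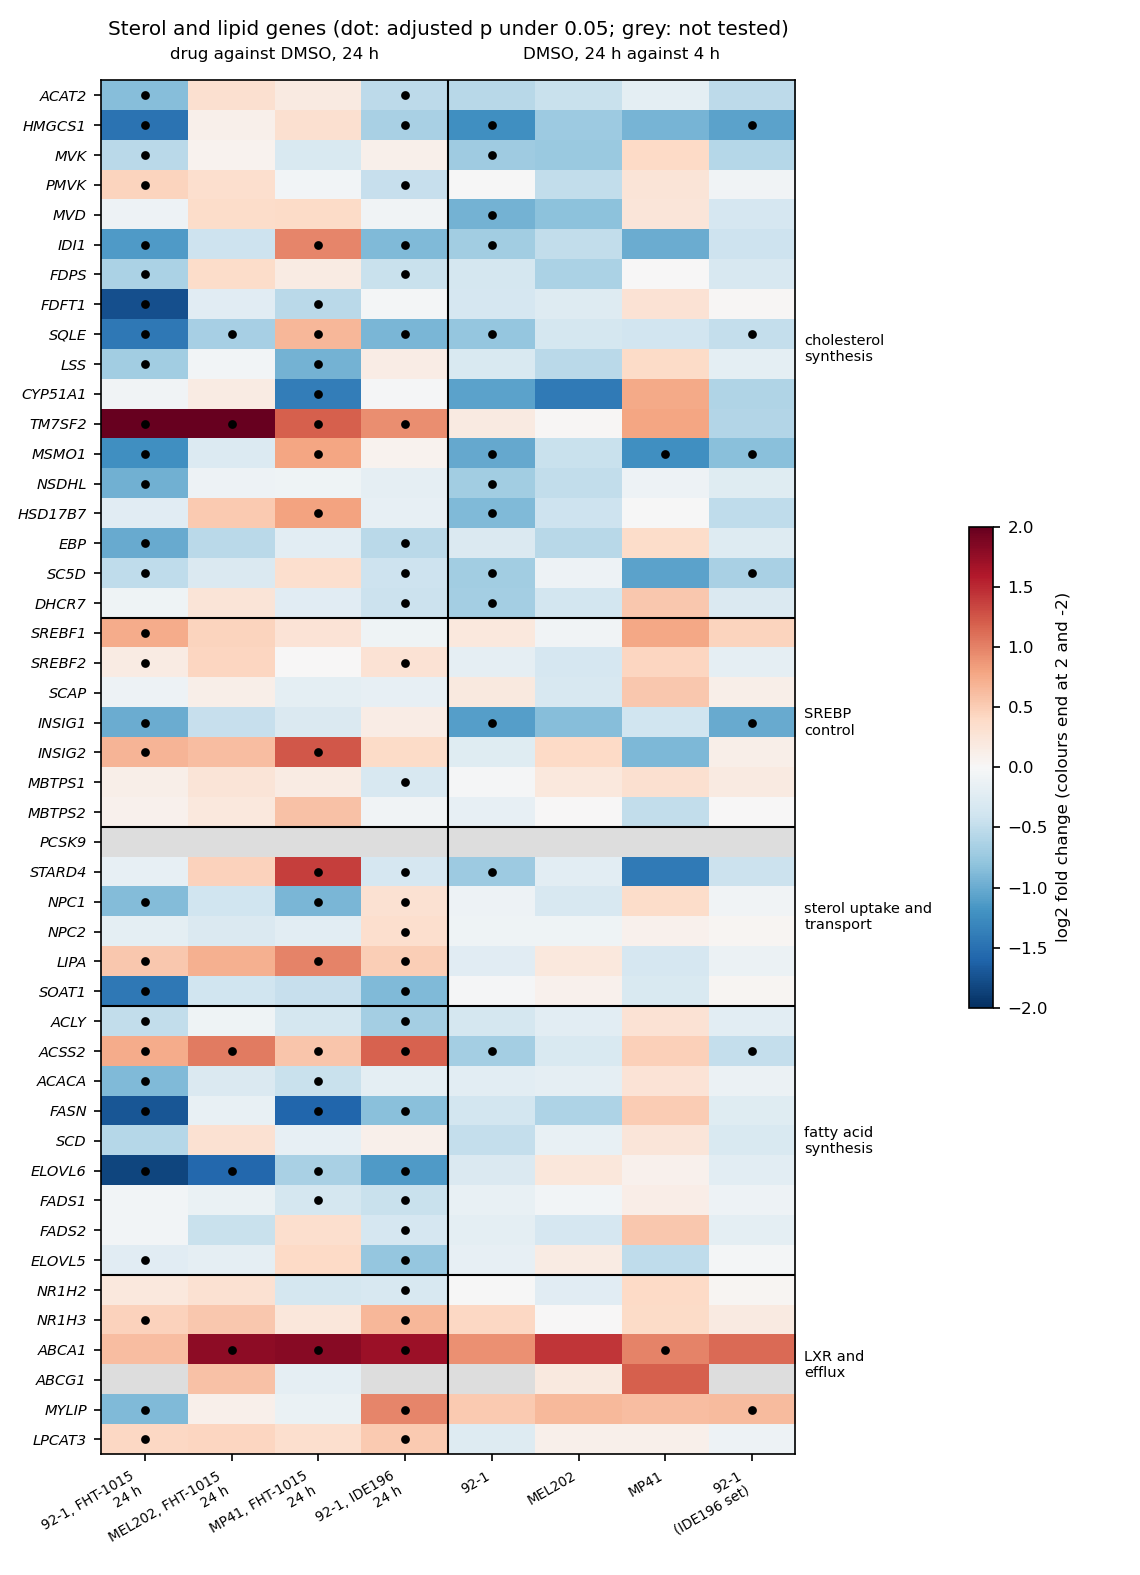
Log2 fold changes of the sterol and lipid genes of 5 lists, with the drug effects at 24 h on the left and the DMSO change from 4 h to 24 h on the right; dots mark an adjusted p under 0.05 and grey cells were not tested. The synthesis block is mostly lower in 92-1 with FHT-1015 (12 of 18 called lower beside 31.4% of all genes), mixed in MP41 (5 higher beside 17.4% and 3 lower beside 18.7%, near those shares), and TM7SF2 and ACSS2 are higher in all 4 drug columns.

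Over the 16 group means, each centred on its experiment, HMGCS1 correlated with IDI1 (r = 0.908), SQLE (0.893) and INSIG1 (0.89), less with FDFT1 (0.63) and DHCR7 (0.582), and negatively with SREBF1 (-0.794), while SREBF2 was near 0 with HMGCS1 (-0.0285) and SQLE (0.0176). The 16 points share libraries within each experiment and follow 2 times and 2 drugs, so these values only describe the pattern. Among 10483 genes with a mean of at least 5 CPM, those most like the mean of the 5 enzymes and INSIG1 were NSDHL (r = 0.963), SAR1A (0.946), RAC1 (0.943), EPM2A (0.917) and VCP (0.915). NSDHL is itself a sterol synthesis enzyme gene of the 18. Those most like SREBF1 were CHST12 (0.981) and NLGN2 (0.953), and those most like SREBF2 were HADHA (0.91) and HDLBP (0.909).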

How the data were processed

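RNA was measured by poly(A)-selected sequencing in 48 samples. Per the file layout, the authors deposited raw read counts per gene in the form STAR writes, with unstranded and stranded columns; the submitters' processing notes name hg38 and limma, and the annotation and versions are not given in the sources used here. Values here are from the unstranded column: 49.7% to 50.1% of stranded reads fell on the first strand. Gene names and positions come from GENCODE 29, which holds 58552 of the 58870 genes by unversioned identifier; 92 spike-ins had no reads and were left out.

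Each experiment was fitted with edgeR 4.0.16 (R 4.3.3): TMM, filterByExpr, quasi-likelihood F-tests on the 4 groups, Benjamini-Hochberg over all genes tested, and a call at an adjusted p under 0.05. Differences among lines used the 36 FHT-1015 samples (an F-test over the 3 effects), and those between drugs or DMSO sets of 92-1 its 24 samples. Standard errors are the log2 fold change over the square root of F, and 95% intervals are 1.96 of them, unadjusted. Fits were also run on simulated counts, drawn independently from the fitted spread. Those held no replicate effect and no outlying library, so they did not check for either. Biological coefficients of variation were 0.117 and 0.112 in the 92-1 fits, 0.294 in MEL202 and 0.217 in MP41.

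Named besides the 8 genes were, per lipid list and drug comparison, at most the called gene with the largest rise and that with the largest fall, and not all of these; genes named outside this rule are marked in the text or were not called; likeness was Pearson's r. Some lipid genes are not reported here and were left out of the lists and their counts, though not of the fits. The 8 genes, lists and tests were chosen with earlier results of these data known. Alternatives were other normalisations, no filter, DESeq2 1.42.0, limma-voom with quality weights (limma 3.58.1), the summed stranded columns, other sample sets, a replicate block and leaving out each library.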

Additional observations from a re-analysis of the deposited data

Results flagged for a closer look

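In 92-1 the effect of FHT-1015 differed between 4 h and 24 h for 6 of the 8 genes. The adjusted p of that difference, from edgeR's test of the interaction, was 7.28e-07 for SQLE, 2.87e-06 for FDFT1, 2.02e-05 for IDI1, 0.000271 for HMGCS1, 0.000457 for INSIG1 and 0.0108 for DHCR7, the only 1 of the 6 whose effect was less negative at 24 h. The last of these was 0.261 with all 48 samples in 1 fit.

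In MEL202 the effect on INSIG1 differed between the times with an adjusted p of 0.0448, which was lost in 10 of the 12 fits without 1 library, and in MP41 that on SQLE with 0.00825. With IDE196 in 92-1 the difference between the times had an adjusted p of 0.00388 for SQLE and 0.0232 for IDI1, and 0.0721 and 0.53 with all 48 samples in 1 fit.

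At 24 h the effect of FHT-1015 differed among the 3 lines for SQLE (adjusted p 1.13e-08), FDFT1 (2.23e-07), IDI1 (0.00142) and HMGCS1 (0.00334). SQLE and IDI1 were called lower in 92-1 and higher in MP41. Line and experiment cannot be told apart here.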

How the results depend on the processing

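Of the 64 values of the 8 genes in the 8 drug comparisons, 21 were called. Of those, 11 were called under each alternative fitted (9 for FHT-1015 and 8 for IDE196, which had no replicate block) and 17 in each fit without 1 library. The 5 genes lowered by FHT-1015 in 92-1 at 24 h were called lower in all of these fits. The cause was not tested for any of the changes below. No value is given for the 24 h minus 4 h effect from the compared samples alone, and DESeq2 tested the lines with a likelihood ratio test. Of the 115 values of the 8 genes not called in any comparison as reported, 44 were called under at least 1 alternative and 24 in at least 1 fit without 1 library. A percentage after a count below is the share of all genes called the same way in the same fit.

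With all 48 samples in 1 fit the number of the 8 genes called was 1 lower for 92-1 with FHT-1015 at 4 h (7.02%), 1 higher for 92-1 with FHT-1015 at 24 h (17.6%), 3 for 92-1 with FHT-1015 (DMSO over time) (0.0742%), 2 lower for MEL202 at 24 h (16.3%), 2 for MEL202 (24 h minus 4 h effect) (18.3%), 1 for MEL202 (DMSO over time) (0.0053%), 3 for MP41 (24 h minus 4 h effect) (19.8%), 6 for MP41 (DMSO over time) (15.3%), 1 lower for 92-1 with IDE196 at 4 h (2.9%), 0 higher for 92-1 with IDE196 at 24 h (19%), 2 lower for 92-1 with IDE196 at 24 h (16.7%), 0 for 92-1 with IDE196 (24 h minus 4 h effect) (11.4%), 1 for 92-1 with IDE196 (DMSO over time) (0.0265%), 1 for the test among lines at 4 h (2.03%) and 1 for the difference between drugs at 4 h (9.31%). With no low-count filter the number of the 8 genes called was 1 higher for 92-1 with FHT-1015 at 24 h (12.4%), 0 lower for MEL202 at 24 h (5.14%), 0 for MEL202 (24 h minus 4 h effect) (3.84%), 3 for MP41 (DMSO over time) (7.39%), 1 higher for 92-1 with IDE196 at 4 h (3.16%) and 5 for 92-1 with IDE196 (DMSO over time) (1.5%). With DESeq2 the number of the 8 genes called was 1 higher for 92-1 with FHT-1015 at 24 h (20.2%), 2 for MP41 (24 h minus 4 h effect) (19.8%), 3 for MP41 (DMSO over time) (13.3%), 4 for 92-1 with IDE196 (24 h minus 4 h effect) (29.2%) and 1 for the test among lines at 4 h (2.52%). With the stranded columns summed the number of the 8 genes called was 1 higher for 92-1 with FHT-1015 at 24 h (28.8%). With only the samples compared the number of the 8 genes called was 1 higher for 92-1 with FHT-1015 at 24 h (29.4%), 2 higher for MEL202 at 24 h (20.5%), 3 lower for MEL202 at 24 h (20.5%), 1 higher for MP41 at 4 h (0.665%) and 1 higher for MP41 at 24 h (9.01%). With limma-voom the number of the 8 genes called was 2 higher for MEL202 at 24 h (28.2%), 4 lower for MEL202 at 24 h (27.3%), 2 for MEL202 (24 h minus 4 h effect) (16%), 1 higher for MP41 at 4 h (1.28%), 2 lower for MP41 at 24 h (28.6%), 5 for MP41 (24 h minus 4 h effect) (47.3%), 8 for MP41 (DMSO over time) (53.4%), 3 for the test among lines at 4 h (8.08%), 4 for the difference between drugs at 4 h (31.5%) and 7 for the test among lines at 24 h (52.2%). With RLE normalisation the number of the 8 genes called was 0 for MEL202 (24 h minus 4 h effect) (6.93%). With library size alone the number of the 8 genes called was 4 for the difference between drugs at 4 h (24.5%).

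Same-numbered FHT-1015 and DMSO samples correlated above 0.1 in 7 of 18 pairs (-0.322 to 0.508). Whether they were paired is not stated, and these values do not settle it. SREBF1 in 92-1 with FHT-1015 ran in the order of replicate number in each of its 4 groups. The fits as reported took no account of the number. With the replicate block the number called was 0 for MEL202 (24 h minus 4 h effect; 6.13%), 2 for MP41 (24 h minus 4 h effect; 18.5%) and 1 for MP41 (DMSO over time; 3.47%). The block gave SREBF1 in 92-1 an adjusted p of 0.000125 for the 24 h minus 4 h effect, and INSIG1 0.0695 in MEL202 and 0.0397 in MP41, and it gave INSIG1 0.0439 in the test among lines at 24 h. It was not fitted for the drug difference, the DMSO levels or IDE196, whose samples share no numbers with their DMSO.

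Without 1 library the number called, with the range of the share of all genes over the same fits, ran from 0 to 2 higher for 92-1 with FHT-1015 at 24 h (26.1% to 29.4%), 6 to 7 for 92-1 with FHT-1015 (24 h minus 4 h effect) (39.3% to 44.1%), 0 to 1 lower for MEL202 at 24 h (5.9% to 12.6%), 0 to 1 for MEL202 (24 h minus 4 h effect) (3.14% to 9.55%), 0 to 1 higher for MP41 at 4 h (0.0062% to 0.212%), 1 to 3 higher for MP41 at 24 h (12.2% to 24.7%), 1 to 2 lower for MP41 at 24 h (14.9% to 24.6%), 1 to 4 for MP41 (24 h minus 4 h effect) (12.1% to 36.3%) and 0 to 6 for MP41 (DMSO over time) (0.0869% to 42.6%). It ran from 1 to 3 for 92-1 with IDE196 (24 h minus 4 h effect) (25.6% to 29.1%), 2 to 4 for 92-1 with IDE196 (DMSO over time) (0.0251% to 0.316%), 0 to 1 for the test among lines at 4 h (0.755% to 1.93%), 1 to 3 for the difference between drugs at 4 h (20.4% to 25%), 4 to 5 for the difference between drugs at 24 h (28.5% to 33.2%), 5 to 7 for the DMSO level of 92-1 against MEL202 (47.9% to 54.8%), 7 to 8 for the DMSO level of 92-1 against MP41 (60.8% to 66.4%), 7 to 8 for the DMSO level of MEL202 against MP41 (51.9% to 57.9%) and 6 to 7 for the DMSO sets of 92-1 (55.1% to 59.5%).

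The log2 fold change took the other sign for 34 values in at least 1 fit, and 0 of these were called as reported and 0 where the sign changed. With limma-voom these were IDI1 0.0345 for 92-1 with FHT-1015 at 4 h, DHCR7 0.00606 for 92-1 with FHT-1015 at 24 h, SREBF2 -0.0173 for MEL202 at 4 h, HMGCS1 -0.24 for MEL202 (24 h minus 4 h effect), FDFT1 -0.000286 for MEL202 (24 h minus 4 h effect), SREBF1 0.091 for MEL202 (DMSO over time), SREBF1 -0.00147 for MP41 at 4 h, FDFT1 0.0657 for 92-1 with IDE196 (24 h minus 4 h effect) and FDFT1 -0.0492 for 92-1 with IDE196 (DMSO over time). With the stranded columns summed these were SREBF2 -0.0513 for 92-1 with FHT-1015 at 4 h, HMGCS1 -0.00284 for MEL202 (24 h minus 4 h effect), SREBF1 -0.00142 for MP41 at 4 h and INSIG1 0.000552 for 92-1 with IDE196 at 4 h. With all 48 samples in 1 fit these were HMGCS1 -0.00605 for MEL202 (24 h minus 4 h effect), SREBF2 -0.0669 for MP41 at 24 h, INSIG1 0.00447 for 92-1 with IDE196 at 4 h, FDFT1 0.00131 for 92-1 with IDE196 at 4 h, FDFT1 0.0111 for 92-1 with IDE196 at 24 h, FDFT1 0.00982 for 92-1 with IDE196 (24 h minus 4 h effect) and DHCR7 0.0041 for the DMSO level of 92-1 against MEL202. With RLE normalisation these were SREBF2 -0.00533 for MP41 at 24 h and DHCR7 0.0069 for the DMSO level of 92-1 against MEL202. With no low-count filter these were SREBF2 -0.0014 for MP41 at 24 h. With DESeq2 these were SREBF2 -0.0106 for MP41 at 24 h and DHCR7 0.00691 for the DMSO level of 92-1 against MEL202. With only the samples compared these were SREBF2 -0.0592 for MP41 at 24 h and INSIG1 0.00105 for 92-1 with IDE196 at 4 h. With the replicate block these were SREBF2 0.0166 for MP41 (24 h minus 4 h effect). With library size alone these were INSIG1 0.000269 for 92-1 with IDE196 at 4 h, FDFT1 0.00657 for 92-1 with IDE196 at 24 h, FDFT1 0.00801 for 92-1 with IDE196 (24 h minus 4 h effect) and SQLE 0.0365 for the DMSO sets of 92-1.

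Without 1 library the sign also changed. HMGCS1 ran from -0.21 to 0.0436 for 92-1 with FHT-1015 at 4 h, -0.19 to 0.37 for MEL202 at 4 h, -0.00958 to 0.21 for MEL202 at 24 h, -0.26 to 0.30 for MEL202 (24 h minus 4 h effect), -0.0188 to 0.16 for MP41 at 4 h, -0.000733 to 0.61 for MP41 at 24 h and -0.0406 to 0.56 for MP41 (24 h minus 4 h effect). IDI1 ran from -0.12 to 0.0118 for 92-1 with FHT-1015 at 4 h and -0.26 to 0.50 for MEL202 at 4 h. SREBF1 ran from -0.54 to 0.0308 for 92-1 with FHT-1015 at 4 h, -0.0703 to 0.42 for 92-1 with FHT-1015 (DMSO over time), -0.23 to 0.12 for MEL202 (DMSO over time), -0.00489 to 0.12 for MP41 at 4 h, -0.017 to 0.57 for MP41 (24 h minus 4 h effect) and -0.22 to 0.0978 for 92-1 with IDE196 at 24 h. SREBF2 ran from -0.00669 to 0.0112 for 92-1 with FHT-1015 at 4 h, -0.12 to 0.45 for MEL202 at 4 h, -0.0117 to 0.55 for MEL202 (24 h minus 4 h effect), -0.0396 to 0.0888 for MP41 at 4 h, -0.23 to 0.24 for MP41 at 24 h and -0.25 to 0.23 for MP41 (24 h minus 4 h effect). SQLE ran from -0.20 to 0.0209 for MEL202 at 4 h. DHCR7 ran from -0.12 to 0.44 for MEL202 at 4 h, -0.20 to 0.37 for MEL202 (24 h minus 4 h effect), -0.0043 to 0.17 for MP41 at 4 h and -0.15 to 0.13 for the DMSO level of 92-1 against MEL202. FDFT1 ran from -0.0203 to 0.18 for MEL202 (24 h minus 4 h effect), -0.075 to 0.0761 for 92-1 with IDE196 at 4 h, -0.0882 to 0.0301 for 92-1 with IDE196 at 24 h, -0.10 to 0.0371 for 92-1 with IDE196 (24 h minus 4 h effect) and -0.0517 to 0.0988 for 92-1 with IDE196 (DMSO over time). INSIG1 ran from -0.10 to 0.0782 for 92-1 with IDE196 at 4 h.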
